A study of Mus musculus with 14 samples.

Results

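Liver tumours of mice lacking both Cdk16 and Cdk18 were compared with liver tumours lacking Cdk18 alone, across all expressed genes. The members were the libraries that the labels give to these genotypes, 4 double knockout tumours (DKO) and 5 single knockout tumours (CDK18KO), 9 of the 14 samples in the series. The other 5 libraries came from wild-type tumours (WT). They entered the estimate of the spread between tumours, the filter on low counts and the scaling factors, but no comparison. RNA was read at its 3′ ends, where a transcript gives 1 tag near its poly(A) tail whatever its length. Differences are given as log2 fold changes of DKO over CDK18KO, so that a positive value is higher in DKO.

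CDK16 and CDK18 are kinases of the PCTAIRE group, a branch of the cyclin-dependent kinases that is activated by cyclin Y and related cyclins. The series' title places their inhibition beside DNA repair at the nuclear pore, the channel through which proteins and RNA cross the nuclear envelope. Tumours driven by c-Myc are known for high expression of genes for ribosome assembly and DNA replication, which Myc activates. Tumours with active β-catenin are known for genes of the Wnt feedback loop and of perivenous liver metabolism.

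Per the labels' protocols, every tumour grew from liver cells that had taken up plasmids for mouse β-catenin and c-Myc after hydrodynamic injection, a rapid injection of a large volume into a vein. CDK18KO animals lacked Cdk18. DKO animals lacked Cdk18 and lost Cdk16 in tumours that had already formed, through floxed Cdk16 alleles (Cdk16 fl/fl) and Cre-ERT2, a Cre recombinase that tamoxifen switches on. Tamoxifen was given at 75 mg/kg on 5 days, to these animals and to Cre-ERT2 controls, and tissue was taken 10 days later. The labels do not say which group the Cre-ERT2 controls belong to, so loss of Cdk16 and the presence of Cre-ERT2 with tamoxifen cannot be told apart where CDK18KO animals had neither. The promoter that drove Cre-ERT2, the strain, the age and the sex are not given in the sources used here. The endpoint was a tumour of 15 mm, distress, or 8 weeks. The labels call the samples biological replicates, and the p-values measure the spread between these samples.

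The 9 libraries held between 2023596 and 3324298 counts, and 13997 genes passed the filter on low counts. CDK18KO 1 stood apart by its Y-linked genes, which summed to 348 CPM, the unit of counts once every library is brought to an equal sum, with Xist at 64.3 CPM. The other 8 libraries had at most 7.41 CPM of Y-linked genes and 477 to 1293 CPM of Xist. In CDK18KO 1, CDK18KO 3 and DKO 3 the hepatocyte function genes, which encode secreted proteins and enzymes that define the labelled tissue, summed to 4027 to 6485 CPM, against 17989 to 59975 CPM in the other 6 libraries. These 3 libraries also held the highest sums of Wnt feedback genes, 2771 to 4401 CPM against 403 to 1690 CPM. Mitochondrial transcripts made up 1.80% to 8.13% of the counts, with the highest share in DKO 4. Both groups held tumours with high and low hepatocyte sums, and medians of lists that 1 library moved widely are given with and without it.

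No gene passed an adjusted p of 0.05 in the quasi-likelihood test of edgeR, where the smallest adjusted p was 0.144 (0% of 13997 genes called). At an unadjusted p under 0.05 there were 552 genes with higher expression in DKO (3.94% of those tested) and 260 with lower expression (1.86%). DESeq2 called 122 genes as higher in DKO (0.674% of its 18089) and 4 as lower (0.0221%), and limma voom called 0 with 1009 at an unadjusted p under 0.05. The estimates were asymmetric: 1150 genes stood more than 2-fold higher in DKO and 288 more than 2-fold lower, while the median of all genes was -0.02. The direction depended on the level of expression. Of 3786 genes at a mean of 1 to 10 CPM, 257 were higher and 24 lower at an unadjusted p under 0.05. Of 2608 genes from 100 CPM upward, 32 were higher and 84 lower at that threshold. Genes whose 9 values did not overlap between the groups numbered 122 higher in DKO (0.872%) and 101 lower (0.722%). The 95% interval of the log2 fold change lay within 1 of 0 for 3747 genes (26.8%). That share was 2.51% among genes at a mean of 1 to 10 CPM and 49.8% from 100 CPM upward.

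**Figure D1:**
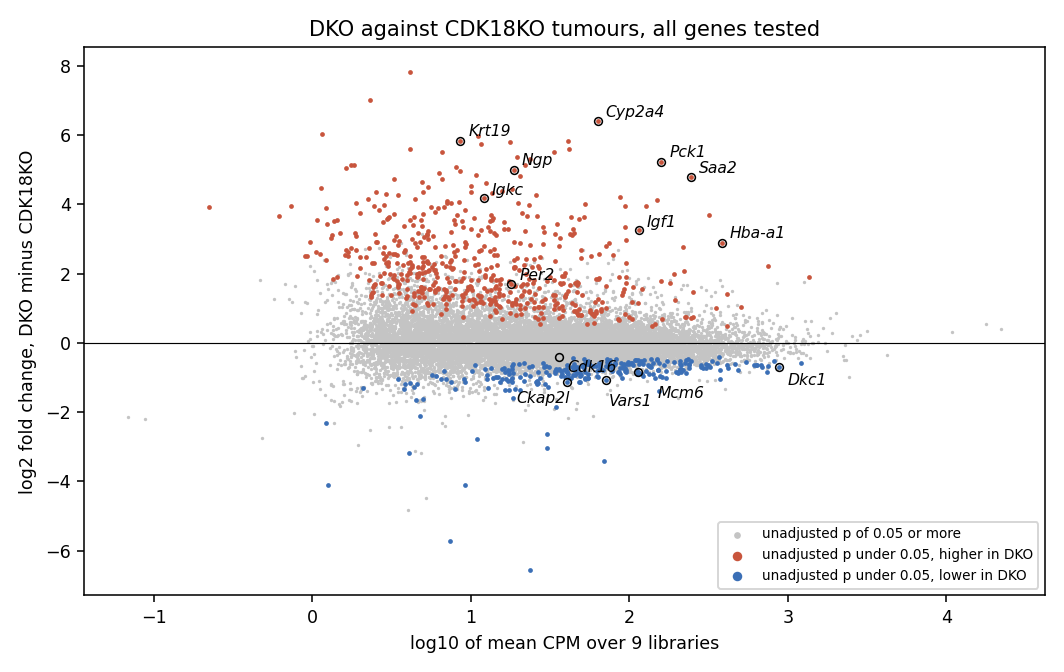
Each point is 1 of the 13997 genes tested, with the log10 of its mean CPM over the 9 libraries on the horizontal axis and its log2 fold change (DKO over CDK18KO) on the vertical axis. Red points are the 552 genes with an unadjusted p under 0.05 that were higher in DKO, blue points the 260 that were lower, grey points the rest, and circles mark named genes. Higher genes reach log2 fold changes above 4 at low and middle CPM, and most lower genes lie between 0 and -2.

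The targeted kinases were low or variable in both groups. Cdk16 (chrX:20687954-20699880 in GRCm38) stood at 65.8, 36.7, 37.0, 32.7 and 31.0 CPM across CDK18KO 1 to 5 and at 38.9, 18.03, 48.5 and 17.8 CPM in DKO 1 to 4. DKO 2 and DKO 4 lay below every CDK18KO library, and DKO 1 and DKO 3 lay among them. With all libraries the difference was -0.39 (SE 0.34, adjusted p = 0.993 in edgeR), and it was 0.054 without CDK18KO 1 and DKO 4. A 3′ tag can come from a transcript that lacks a floxed exon, so these counts do not check the deletion. Cdk18 had a mean of 1.98 ± 1.06 CPM (SD, n = 5) in CDK18KO and 1.90 ± 1.51 CPM (SD, n = 4) in DKO, with a log2 fold change of -0.02 (SE 0.71).

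The related kinases gave values that overlapped between the groups. Cdk17, the third PCTAIRE kinase, had a log2 fold change of 0.09 (SE 0.33). Cdk14, a PFTAIRE kinase that binds cyclin Y at the membrane, ranged from 0.991 to 84.5 CPM in CDK18KO and from 4.45 to 59.5 CPM in DKO. Ccny, which encodes cyclin Y, stood at 133 ± 45.2 CPM (SD, n = 5) and 118 ± 6.36 CPM (SD, n = 4), and its relative Ccnyl1 had a log2 fold change of -0.02 (SE 0.50). Cdk15 had too few counts to be tested.

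Genes of G2 phase and mitosis, which build the spindle, condense chromosomes and carry out division, were lower in DKO. All 62 listed genes had a negative log2 fold change, from -1.13 to -0.18, with a median of -0.66 against -0.02 over all genes tested. Of them 22 had an unadjusted p under 0.05, against a background of 1.86%, and 6 did not overlap between the groups, against 0.722%. None passed the adjusted threshold by edgeR. DESeq2 called 1, Ckap2l. In these bulk samples fewer cells of a type and less RNA per cell cannot be told apart.

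Ckap2l encodes a spindle protein needed for chromosome segregation and lies at chr2:129268210-129297212 on the minus strand of GRCm38. Its expression was 64.0, 44.7, 62.7, 53.2 and 43.6 CPM across CDK18KO 1 to 5 and 22, 21.97, 31.7 and 22.2 CPM in DKO 1 to 4. The groups did not overlap, and DKO 3 was the highest of the DKO libraries. The log2 fold change was -1.13 (SE 0.23, edgeR adjusted p = 0.186). Among genes below an adjusted p of 0.25 by edgeR it was the 1 that was lower in DKO, against 37 that were higher.

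Nek2, a centrosome kinase, stood at 60.9, 87.2, 43.2, 61.1 and 89.4 CPM in CDK18KO and at 25.4, 31.0, 41.8 and 33.3 CPM in DKO. DKO 3 and CDK18KO 3 nearly met, at a log2 fold change of -1.05 (SE 0.30). Hmmr, a microtubule-binding protein of the spindle, stood at 112, 98.4, 141, 105 and 122 CPM in CDK18KO and at 30.3, 54.6, 79.0 and 65.6 CPM in DKO, without overlap and with a log2 fold change of -1.01 (SE 0.31). Ndc80, part of the kinetochore complex that holds microtubules, had a log2 fold change of -0.88 (SE 0.29) and did not overlap either. Among the most highly counted members, Top2a, the topoisomerase that untangles chromosomes, stood at 1370.0, 628, 1146, 666 and 662 CPM in CDK18KO and at 321, 414, 942 and 499.6 CPM in DKO. DKO 3 reached the CDK18KO range, and the difference of -0.72 (SE 0.37) had an edgeR adjusted p of 0.920. The condensin subunits Smc4 and Smc2 gave -0.46 (SE 0.29) and -0.51 (SE 0.29), both with overlap.

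The summed CPM of the G2 and mitosis genes reached 8552, 5767, 8258, 6058 and 7054 across CDK18KO 1 to 5, against 3398, 3250, 6647 and 5029 across DKO 1 to 4. DKO 1, DKO 2 and DKO 4 lay below every CDK18KO library, and DKO 3 lay above CDK18KO 2 and CDK18KO 4. Without DKO 3 the median of the list was -0.94 with 33 members at an unadjusted p under 0.05 (background 3.35%). Without CDK18KO 1 and DKO 4 it was -0.62 with 13 such members (background 1.21%). With the hepatocyte function score as a covariate the median was -0.56 with 21 such members (background 2.74%).

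The promoters of this list are shown because many cell cycle genes carry 2 short elements, a CCAAT box bound by the factor NF-Y and the cell cycle homology region, TTTGAA, through which the DREAM complex represses them in resting cells. The sequences were taken from RefSeq (GRCm38.p6), which held a promoter for 53 of the 62 members. Each line gives the 150 bases before the start of transcription, 5′ to 3′ on the gene's own strand, with CCAAT and TTTGAA in capitals (ATTGG and TTCAAA are the same elements on the opposite strand). The windows are chr2:129297213-129297362 for Ckap2l, chr11:40733438-40733587 for Hmmr and chr11:99024190-99024339 for Top2a, all on the minus strand of GRCm38.
Ckap2l: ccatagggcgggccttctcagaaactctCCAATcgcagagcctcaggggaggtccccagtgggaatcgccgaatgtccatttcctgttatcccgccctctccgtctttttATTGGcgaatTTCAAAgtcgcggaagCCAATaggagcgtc
Hmmr: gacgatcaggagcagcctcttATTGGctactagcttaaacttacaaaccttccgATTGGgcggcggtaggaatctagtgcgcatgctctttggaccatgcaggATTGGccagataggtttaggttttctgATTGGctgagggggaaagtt
Top2a: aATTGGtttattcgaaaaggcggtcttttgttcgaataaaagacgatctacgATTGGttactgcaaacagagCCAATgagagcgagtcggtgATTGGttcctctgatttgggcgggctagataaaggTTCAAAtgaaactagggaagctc

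The Ckap2l promoter held TTCAAA with its first base 30 bases before the start, and that of Top2a held it 23 bases before. Hmmr had no such match and 4 copies of ATTGG. In the 250 bases before the start, searched on both strands, TTTGAA was present in 21 of the 53 promoters of the list (39.6%), against 10.8% of the 9940 tested genes with a promoter and 16.3% of all 27025 promoters. CCAAT was present in 37 (69.8%), against 36.7% and 34.5%. Both were present in 18 (34%), against 4.09% and 5.73%. Neither motif contains the other. Members with TTTGAA had a median log2 fold change of -0.62 (21 genes) and those without it -0.72 (32 genes). A match is a description of the letters in the window and does not show that a factor binds there.

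Genes of S phase, which copy DNA, were lower in DKO by a smaller amount. Of 50 genes 47 had a negative log2 fold change, the median was -0.45, and 5 had an unadjusted p under 0.05 (background 1.86%). Mcm6, a subunit of the replicative helicase, stood at 118, 104, 141, 186 and 159 CPM in CDK18KO and at 96.0, 55.2, 80.9 and 86.1 CPM in DKO. These values did not overlap and differed by -0.83 on the log2 scale (SE 0.25, edgeR adjusted p = 0.485). Pola2 and Prim1, subunits of the polymerase that starts each new strand, gave -0.82 (SE 0.31) and -0.75 (SE 0.30), and the histone chaperone Chaf1a gave -0.89 (SE 0.35), all with overlap. Mcm7, another helicase subunit, ranged from 112 to 360.0 CPM in CDK18KO and from 68.9 to 232 CPM in DKO.

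DNA repair genes followed the same direction. Of 33 genes of homologous recombination and the Fanconi pathway, which repair breaks and crosslinks, 30 were lower with a median of -0.50 and 3 had an unadjusted p under 0.05 (background 1.86%). Brip1, a helicase that works with BRCA1, stood at 40.4, 46.8, 41.0, 55.5 and 52.4 CPM in CDK18KO and at 14.0, 27.0, 30.1 and 25.6 CPM in DKO. No DKO library reached the lowest CDK18KO library, at -0.97 on the log2 scale (SE 0.28, edgeR adjusted p = 0.432). Fancd2, which is loaded at crosslinks, gave -0.91 (SE 0.40) with overlap. Of 30 excision and mismatch repair genes 25 were lower with a median of -0.31, and 6 had an unadjusted p under 0.05, against the same background of 1.86%. Among them was Parp1, a sensor of strand breaks (-0.79, SE 0.25, no overlap). Xrcc5, which encodes the Ku80 end-joining protein, gave -0.60 (SE 0.21) without overlap, in a list of 17 end joining genes of which 12 were lower with a median of -0.26. Of 23 checkpoint genes 21 were lower with a median of -0.35. Cdc25a, a phosphatase that drives cell cycle kinases, gave -0.87 (SE 0.29, no overlap), and Chek1, the kinase that restrains it under replication stress, gave -0.77 (SE 0.31). Without DKO 4, lower members at an unadjusted p under 0.05 numbered 1 for homologous recombination and 2 for excision and mismatch repair (background 1.19%). Without DKO 3 there were 8 in each of these lists (background 3.35%).

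Nuclear pore genes differed by less. Of 30 nucleoporin genes tested 25 were lower in DKO with a median of -0.30, 2 had an unadjusted p under 0.05 (background 1.86%), and the same 2 did not overlap (background 0.722%). Nup50, a nucleoporin of the nuclear basket, stood at 103, 121, 103, 123 and 92.2 CPM in CDK18KO and at 59.7, 77.8, 69.6 and 68.4 CPM in DKO. Every DKO library lay below every CDK18KO library, and the groups differed by -0.65 on the log2 scale (SE 0.30, edgeR adjusted p = 0.845). Ndc1, which anchors the pore in the membrane, stood at 66.2, 46.8, 56.2, 70.0 and 80.6 CPM in CDK18KO and at 46.0, 31.0, 46.6 and 42.8 CPM in DKO. CDK18KO 2 and DKO 3 were nearly equal, and the log2 fold change was -0.62 (SE 0.23). Tpr, the basket scaffold, ranged from 651 to 1730.0 CPM in CDK18KO and from 253 to 789 CPM in DKO (-0.76, SE 0.40). Ranbp2, on the cytoplasmic filaments, went the other way with a log2 fold change of 0.24 (SE 0.33). Without CDK18KO 1 and DKO 4 the median of the nucleoporins was -0.20 and 0 had an unadjusted p under 0.05. Nuclear transport factors gave 25 of 30 lower with a median of -0.25 and 0 at an unadjusted p under 0.05. Tnpo3, an importin, gave -0.46 (SE 0.24), and Ran, the GTPase that gives transport its direction, gave -0.25 (SE 0.28).

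Ribosome biogenesis genes that Myc induces were lower in DKO. Of 55 genes 54 had a negative log2 fold change, the median was -0.50, 14 had an unadjusted p under 0.05 (background 1.86%) and 4 did not overlap (background 0.722%). Wdr12, which processes ribosomal RNA of the large subunit, stood at 172, 209, 238, 222 and 208 CPM in CDK18KO and at 87.2, 128, 159 and 105 CPM in DKO. Nop58, a core protein of box C/D small nucleolar particles, stood at 562, 479, 696, 512 and 707 CPM in CDK18KO and at 338, 298, 442 and 302 CPM in DKO. Dkc1, the pseudouridine synthase of box H/ACA particles, stood at 1035, 1111, 996, 986 and 1208 CPM in CDK18KO and at 641, 647, 772 and 561 CPM in DKO. None of the 3 overlapped, and their log2 fold changes were -0.81 (SE 0.25), -0.78 (SE 0.24) and -0.70 (SE 0.22), with edgeR adjusted p values of 0.485, 0.493 and 0.508. The nucleolar proteins Ncl and Npm1 gave -0.50 (SE 0.29) and -0.24 (SE 0.32), with overlap. Members of the list at an unadjusted p under 0.05 numbered 18 without DKO 3 (background 3.35%) and 7 without DKO 4 (background 1.19%). They numbered 9 without CDK18KO 1 (background 1.98%) and 4 without CDK18KO 1 and DKO 4 (background 1.21%). The E-box CACGTG, a site that Myc can bind, was present in 3 of the 48 promoters matched (6.25%), against 8.65% of the tested genes' promoters.

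Cytosolic aminoacyl-tRNA synthetases, which load amino acids onto transfer RNA, formed a list chosen after values had been seen. Of 20 genes 17 were lower with a median of -0.40, 7 had an unadjusted p under 0.05 (background 1.86%) and 3 did not overlap (background 0.722%). Lars1 stood at 243, 286, 236, 249.7 and 251 CPM in CDK18KO and at 95.2, 159, 176 and 145 CPM in DKO (-0.82, SE 0.21). Vars1 stood at 65.2, 90.9, 102, 105 and 101 CPM in CDK18KO and at 52.3, 49.0, 41.8 and 34.5 CPM in DKO (-1.06, SE 0.27). Both sets were free of overlap, and both genes were called by DESeq2 but not by edgeR (adjusted p = 0.316 and 0.297). Eprs1 gave -0.63 (SE 0.28), also without overlap.

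The remaining genes with the smallest p among those lower in DKO belonged to no single list. L3mbtl2, a chromatin protein of a Polycomb-related complex, stood at 32.3, 34.03, 31.4, 42.6 and 29.2 CPM in CDK18KO and at 17.7, 18.03, 13.6 and 12.8 CPM in DKO. It did not overlap (-1.12, SE 0.27, edgeR adjusted p = 0.256), and DESeq2 called it. Mtrex, an RNA helicase of the nuclear exosome, gave -0.84 (SE 0.25), and the mismatch repair gene Pms1 gave -1.35 (SE 0.42). Impa2, an inositol phosphatase, gave -1.099 (SE 0.35), and Cdca7l, a Myc-interacting protein, gave -1.01 (SE 0.30) with overlap. One such gene, ENSMUSG00000123580, had no symbol and gave -3.17 (SE 1.001). The non-overlapping lower genes with the highest mean CPM were Dkc1, Nucks1 (-0.52), Eif4g1 (-0.68), the ribosomal protein gene Rpl37a (-0.39) and Eprs1. Reads of Rpl37a may be shared with near-identical copies, so its value is uncertain.

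**Figure D2:**
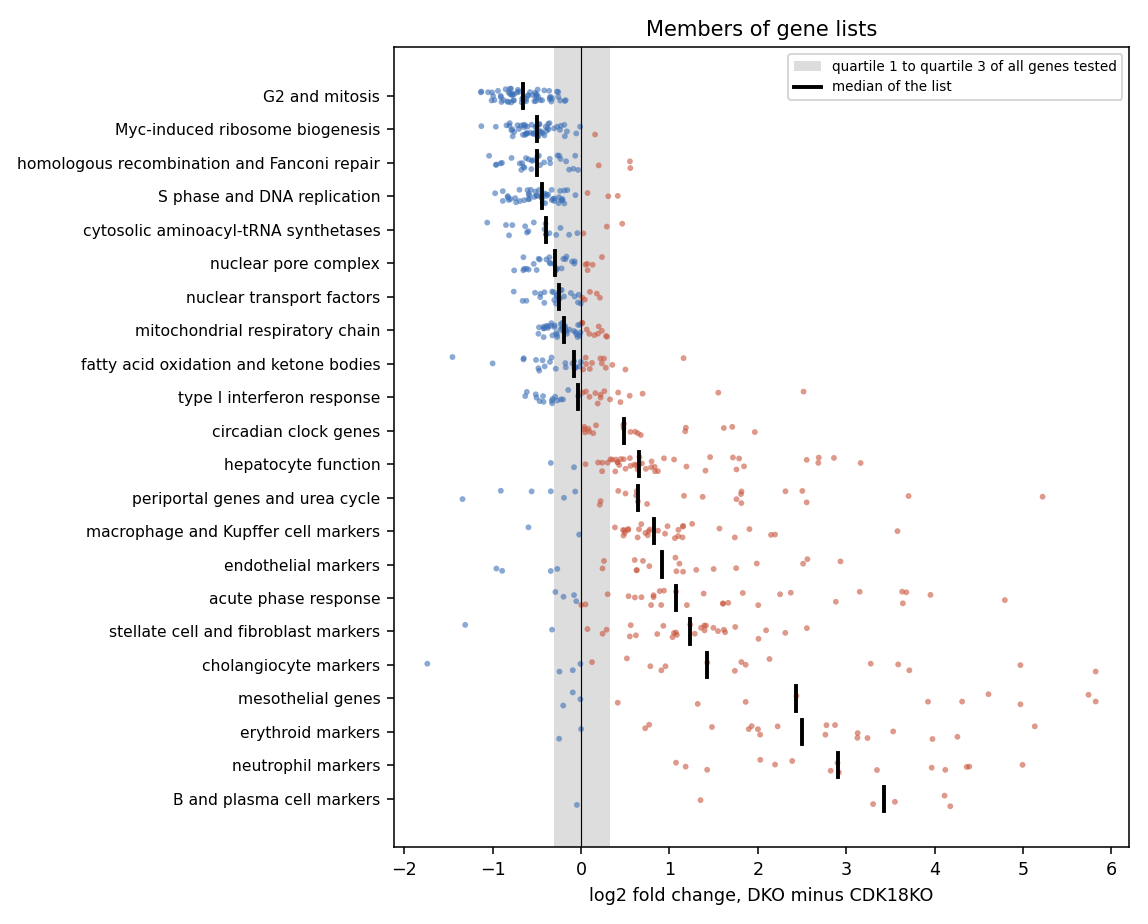
Each point is the log2 fold change (DKO over CDK18KO) of 1 tested member of a gene list, with 22 lists on the vertical axis, black bars at the median of each list and a grey band from the first to the third quartile of all genes tested (-0.31 to 0.33). All G2 and mitosis members lie left of 0, while all neutrophil marker members lie right of it.

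Neutrophil genes were higher in DKO. All 15 tested members had a positive log2 fold change with a median of 2.90, 11 had an unadjusted p under 0.05 (background 3.94%), and 7 did not overlap (background 0.872%). The list holds 31 genes, and a member counted well in DKO alone passes the filter on low counts. The counts of tested members that were higher, had an unadjusted p under 0.05 or did not overlap are therefore no support by themselves. The same limit holds for the other blood, immune, duct and mesothelial lists. The 15 members with counts too low to test also all had a higher mean CPM in DKO, with 67 counts in all CDK18KO libraries and 360 in all DKO libraries. The summed CPM of the list reached 199, 109, 24.8, 48.9 and 186 across CDK18KO 1 to 5, against 1644, 1016, 588 and 741 across DKO 1 to 4, without overlap. The list includes Lcn2, which the acute phase list also holds, so these sums need not be neutrophil RNA alone.

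Secondary granule genes, which mark maturing neutrophils, separated the groups. Ltf, which encodes lactoferrin, stood at 0.311, 0, 0, 0.330 and 0.463 CPM in CDK18KO and at 7.71, 5.07, 3.24 and 5.56 CPM in DKO (4.36, SE 0.75, edgeR adjusted p = 0.144). Ngp, a neutrophil granule protein, stood at 1.86, 0.532, 0.311, 0.330 and 3.24 CPM in CDK18KO and at 55.7, 41.1, 23.9 and 41.1 CPM in DKO (5.00, SE 0.96). Camp, the cathelicidin antimicrobial peptide, stood at 2.48, 0, 0.311, 0 and 5.10 CPM in CDK18KO and at 39.7, 21.4, 20.7 and 51.7 CPM in DKO (4.39, SE 0.96). In all 3 every DKO library was above every CDK18KO library. The calprotectin genes S100a8 and S100a9, also made by monocytes, gave 3.35 (SE 0.82) and 3.97 (SE 0.88). S100a9 ranged from 0.991 to 28.3 CPM in CDK18KO and from 171 to 219 CPM in DKO. Without CDK18KO 1 the median of the list was 3.55 with 11 members at an unadjusted p under 0.05 (background 6.15%), and without DKO 4 it was 2.98 with 12 of 16 (background 3.7%). DESeq2 called 8 members.

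Erythroid genes were also higher, most of all in DKO 4. Of 20 tested members 18 had a positive log2 fold change, the median was 2.49, 15 had an unadjusted p under 0.05 (background 3.94%) and 4 did not overlap (background 0.872%). Hba-a1, which encodes alpha globin, stood at 122, 92.0, 44.7, 117 and 129.7 CPM in CDK18KO and at 437, 303, 755 and 1465 CPM in DKO. Its near-identical copy Hba-a2 stood at 31.4 to 79.8 CPM in CDK18KO and at 117 to 859 CPM in DKO. Neither overlapped, but reads may be split between the copies, so each value is uncertain. The log2 fold change of Hba-a1 was 2.87 (SE 0.51, edgeR adjusted p = 0.144). The beta globin genes Hbb-bt and Hbb-bs gave 2.22 (SE 0.55) and 1.90 (SE 0.58) with overlap, under the same limit. Ahsp, the chaperone of alpha globin in red cell precursors, stood at 0.621, 0.532, 0.311, 0 and 5.56 CPM in CDK18KO and at 11.1, 8.45, 35.0 and 137 CPM in DKO. Sptb, a spectrin of the red cell membrane, stood at 0.330 to 3.11 CPM in CDK18KO and 4.51 to 22.2 CPM in DKO. Both were highest in DKO 4. Without DKO 4 the median of the list was 1.66 and 9 members had an unadjusted p under 0.05 (background 3.7%). The 9 members too low to test had 66 counts in CDK18KO and 926 in DKO, and all 9 had a higher mean CPM in DKO.

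Immunoglobulin genes, the products of plasma cells, were higher in DKO. Igkc, the kappa light chain, stood at 3.11, 1.59, 0.621, 0.991 and 0.463 CPM in CDK18KO and at 17.1, 23.1, 14.6 and 47.8 CPM in DKO (4.18, SE 0.70, edgeR adjusted p = 0.144). Ighm gave 4.11 (SE 0.80), Igha 3.55 (SE 0.76) and the joining chain Jchain 3.30 (SE 0.89), also without overlap. Only 6 of the 28 B and plasma cell markers were tested, of which 5 had an unadjusted p under 0.05 (background 3.94%). They had few counts in CDK18KO and passed the filter largely through DKO, so that count supports nothing by itself. Cd79a and Mzb1 were at 0 in all 9 libraries. Reads of immunoglobulin constant genes can be shared between related genes. Of the 39 T and NK cell markers 5 could be tested, of which 3 were higher in DKO and 2 lower. The summed CPM of that list overlapped, at 25.1 to 246 in CDK18KO and 91.7 to 178 in DKO. Thy1, which fibroblasts also express, stood at 0.932 to 1.85 CPM in CDK18KO and at 4.86 to 9.02 CPM in DKO (2.31, SE 0.47), and the interleukin 7 receptor gene Il7r gave 1.77 (SE 0.61) with overlap and 1.12 without DKO 4.

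**Figure D3:**
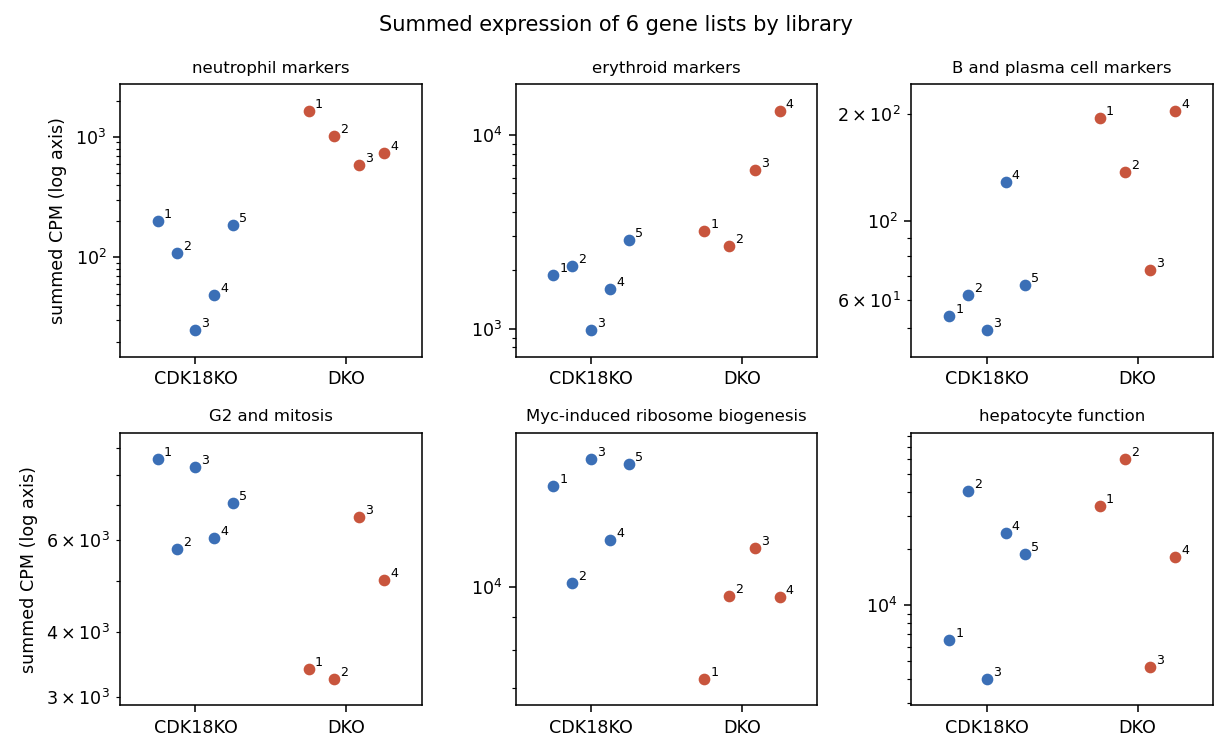
Each point is the summed CPM of all members of a gene list in 1 library, on a log axis, with 5 CDK18KO libraries in blue and 4 DKO libraries in red, numbered by replicate. Neutrophil markers separate the groups, at 24.8 to 199 CPM against 588 to 1644 CPM, while the sums of hepatocyte function genes overlap from 4027 to 40652 CPM against 4654 to 59975 CPM. The neutrophil list includes Lcn2, which the acute phase list also holds.

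Other resident and stromal cell markers were mostly higher in DKO. Of 32 macrophage and Kupffer cell genes 30 were higher with a median of 0.82, and 7 had an unadjusted p under 0.05 (background 3.94%). Marco, a scavenger receptor of Kupffer cells, stood at 28.6, 1.06, 3.73, 0.330 and 6.95 CPM in CDK18KO and at 274, 96.3, 19.4 and 6.11 CPM in DKO. DKO 3 and DKO 4 lay within the CDK18KO range (3.58, SE 1.14, and 2.29 without DKO 1). Gpnmb, of lipid-laden macrophages, gave 1.90 (SE 0.62). Without CDK18KO 1 the median was 1.35 and 20 of the 32 had an unadjusted p under 0.05, against a background of 6.15% in that fit. CDK18KO 1 had the highest mean log2 CPM of the list in its group, 5.11 against 3.50 to 3.96. Leaving it out therefore lowers the CDK18KO mean. With the hepatocyte covariate the median was 0.72, with 4 higher and 1 lower at an unadjusted p under 0.05. Over all 13997 genes that fit gave 572 higher and 383 lower.

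Stellate cell and fibroblast genes followed, with 27 of 29 higher, a median of 1.23 and 5 at an unadjusted p under 0.05 (background 3.94%). Col1a1, the main collagen chain of scar tissue, stood at 233, 80.3, 67.1, 15.8 and 45.9 CPM in CDK18KO and at 615, 167, 229.5 and 174 CPM in DKO. CDK18KO 1 was within the DKO range (1.74, SE 0.62, and 1.103 without DKO 1). Fn1, which encodes fibronectin, gave 1.41 (SE 0.50). Without CDK18KO 1 all 28 tested members were higher, the median was 1.96 and 21 had an unadjusted p under 0.05 (background 6.15%). CDK18KO 1 had the highest mean log2 CPM of this list in its group, 4.84 against 1.47 to 3.11, so leaving it out lowers the CDK18KO mean. Of 22 endothelial genes 18 were higher with a median of 0.92, which was 0.43 without DKO 1. Flt1, a receptor for vascular endothelial growth factor, stood at 9.27 to 29.8 CPM in CDK18KO and at 49.7, 55.8, 24.6 and 350.1 CPM in DKO (2.56, SE 0.69, and 1.09 without DKO 4). Fcgr2b, an Fc receptor of sinusoidal endothelium, stood at 0 to 2.48 CPM in CDK18KO and 2.59 to 9.71 CPM in DKO (2.94, SE 0.80), and Cd34 gave 1.96 (SE 0.51) with overlap.

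Epithelial genes of bile ducts and of the organ surface were higher in DKO at low levels. Krt19, a keratin of bile ducts that mesothelium also expresses, stood at 0.621, 0, 0, 0.330 and 0.463 CPM in CDK18KO and at 7.14, 4.51, 22.7 and 41.7 CPM in DKO (5.82, SE 1.04, edgeR adjusted p = 0.144). Krt7, its partner in ducts, stood at 1.86, 0, 0.621, 0 and 0 CPM in CDK18KO and at 10.0, 3.38, 39.8 and 21.1 CPM in DKO (4.97, SE 1.12). Neither overlapped. Epcam, an adhesion protein of ducts and progenitors, was highest in DKO 3 at 115 CPM and lay at 1.69 to 11.1 CPM in the other DKO libraries, against 0 to 6.21 CPM in CDK18KO. Spp1, which encodes osteopontin, gave 1.74 (SE 0.70) with all libraries and 3.29 (edgeR adjusted p = 0.0144) without CDK18KO 1, where it stood at 169.9 CPM against 6.91 to 23.2 CPM in the other CDK18KO libraries. Of 19 tested cholangiocyte markers 15 were higher and 4 lower, from -1.74 to 5.82, with a median of 1.43, which was 0.61 without DKO 3. The 4 markers too low to test held 61 counts over CDK18KO and 34 over DKO. Of these, Pkhd1 held 58 and 19 and had a lower mean CPM in DKO, while the other 3 had a higher one.

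Mesothelial genes, which mark the lining of the peritoneum and were listed after values had been seen, were higher in 10 of 13 tested members with a median of 2.44. Of these, 7 had an unadjusted p under 0.05 (background 3.94%), and 5 did not overlap (background 0.872%). A list chosen in this way gives no support to the direction. The other 7 members were too low to test, with 37 counts over CDK18KO and 238 over DKO. Gpm6a, a membrane glycoprotein, stood at 2.17, 1.59, 0.621, 0 and 0.927 CPM in CDK18KO and at 24.0, 12.96, 8.74 and 61.1 CPM in DKO (4.61, SE 0.78, edgeR adjusted p = 0.144). Lrrn4 gave 3.93 (SE 0.76), and Msln, which encodes mesothelin, gave 5.74 (SE 1.23) with 88.9 CPM in DKO 4 against 1.69 to 7.71 CPM in the other DKO libraries and 3.25 without DKO 4. Without DKO 4 the median was 1.34. The part of adjoining tissue in these values was not tested.

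Several genes that hepatocytes express were highest in DKO 1 and DKO 2. Igf1, the growth factor that liver releases under growth hormone, stood at 56.5, 16.5, 19.9, 10.9 and 15.3 CPM in CDK18KO and at 455, 250.2, 129.8 and 80.6 CPM in DKO. It did not overlap (3.26, SE 0.57, edgeR adjusted p = 0.144), and it was called without CDK18KO 1 (3.87, adjusted p = 0.0382) and without CDK18KO 1 and DKO 4 (4.17, adjusted p = 0.0270). Igf1 and Spp1 were the 2 genes called by edgeR in those fits. Igf1 did not follow the sums of hepatocyte function genes throughout. CDK18KO 2, with a sum of 40652 CPM, had 16.5 CPM of Igf1. DKO 3, with a sum of 4654 CPM, had 129.8 CPM of Igf1. DKO 1 and DKO 2, where Igf1 was highest, had sums of 33814 and 59975 CPM. Which cells expressed Igf1 was not tested.

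Acute phase genes, which hepatocytes release in inflammation, were higher in 29 of 33 members with a median of 1.07, and 9 had an unadjusted p under 0.05 (background 3.94%). Serum amyloid gene Saa2 stood at 54.7, 7.45, 6.83, 7.93 and 17.1 CPM in CDK18KO and at 1376, 558, 108 and 62.2 CPM in DKO (4.795, SE 1.003). Its near-identical neighbour Saa1 gave 3.68 (SE 0.87) with overlap, and reads may be split between them. Il6ra, the receptor for interleukin 6 that drives this response, gave 1.83 (SE 0.55). With the hepatocyte function score as a covariate the median of the list was 0.39. That score holds some of the same genes, among them Hpx and Fga, so part of this shift is built in.

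Hepatocyte function genes were higher in 43 of 45 members with a median of 0.65, and 3 had an unadjusted p under 0.05, a share near the background of 3.94%. Alb, which encodes albumin, stood at 385, 1246, 57.1, 390.1 and 1010.0 CPM in CDK18KO and at 3129, 3429, 580.0 and 1216 CPM in DKO (1.76, SE 0.97). The groups overlapped through DKO 3 and DKO 4. Without DKO 2 the median of the list was 0.02.

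Periportal genes, of the zone near the portal vein, were higher in 19 of 25 members with a median of 0.64 and 5 at an unadjusted p under 0.05 (background 3.94%). The median was 1.37 without CDK18KO 5 and 0.03 with the hepatocyte function score as a covariate. That score holds some of the same genes, among them Alb, Cps1 and Tat, so part of this shift is built in. Pck1, the gluconeogenic enzyme, stood at 19.3, 7.45, 2.79, 5.62 and 11.1 CPM in CDK18KO and at 747, 554, 43.7 and 44.5 CPM in DKO (5.22, SE 1.098). Each DKO library was above each CDK18KO library, with DKO 1 and DKO 2 far above the other 2. Cyp2f2, a periportal cytochrome, gave 3.71 (SE 1.07) without overlap, and Tat, an amino acid catabolic enzyme, gave 2.55 (SE 1.08). Cps1, the first enzyme of the urea cycle, overlapped at -0.34 (SE 0.92). Among the 28 perivenous genes tested 23 were higher with a median of 0.59. That median was -0.18 without DKO 2, 1.41 without CDK18KO 2 and -0.23 with the hepatocyte covariate, where 9 were higher and 19 lower. Cyp2c50 gave 4.21 (SE 1.16), while Glul, the glutamine synthetase that β-catenin induces, ranged from 361 to 5340.0 CPM in CDK18KO and from 421 to 4703 CPM in DKO (0.28, SE 0.79).

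**Figure D4:**
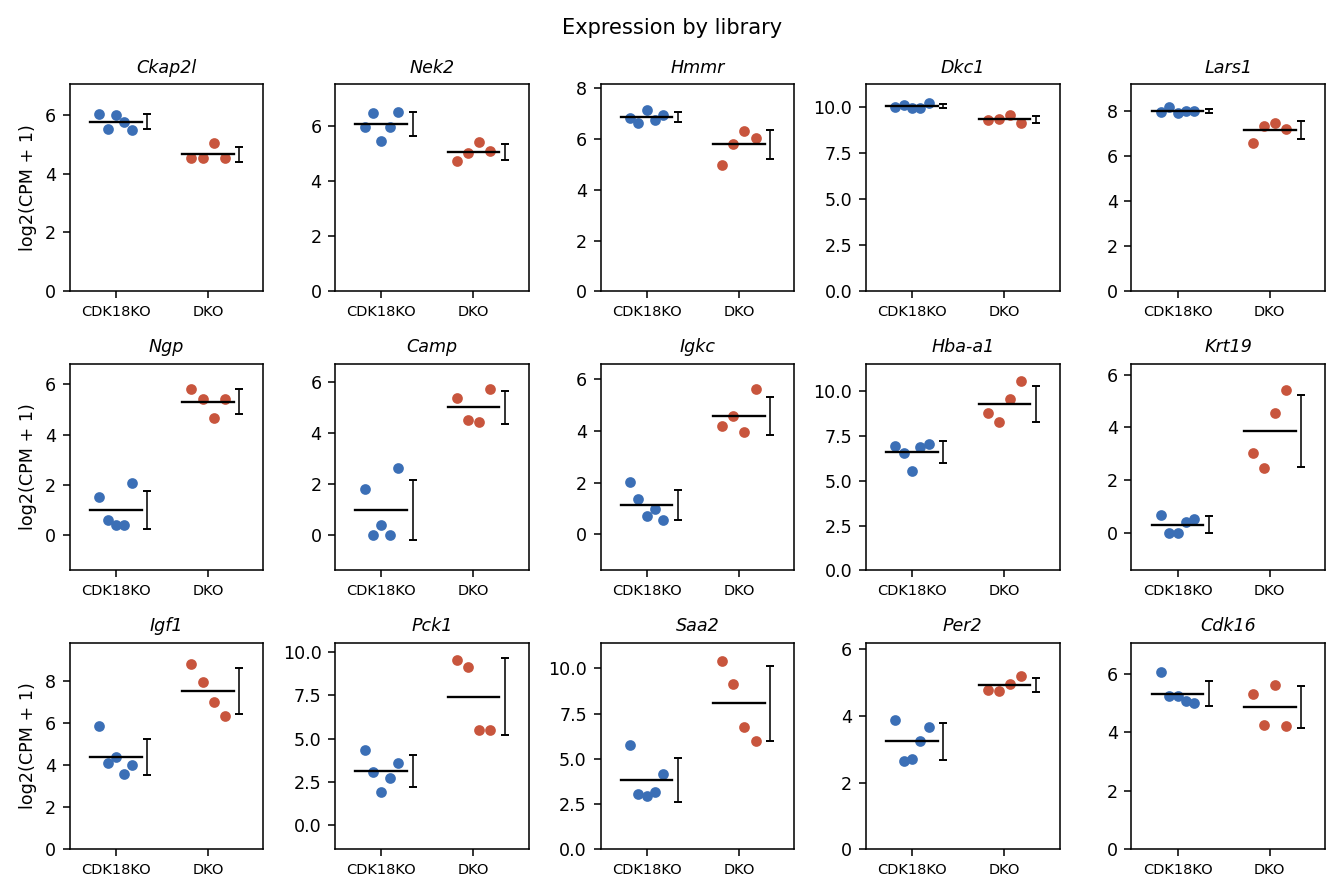
Each panel shows log2(CPM + 1) of 1 gene in the 5 CDK18KO libraries (blue) and the 4 DKO libraries (red), with a line at the mean and a whisker of 1 SD. The groups do not overlap for the genes shown except Cdk16, whose log2 fold change was -0.39.

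Circadian clock genes, whose levels follow the time of day, were higher in DKO in all 19 tested members. These members had a median of 0.48, 4 had an unadjusted p under 0.05 (background 3.94%), and 2 did not overlap (background 0.872%). Npas2, too low to test, had a lower mean CPM in DKO, with 9 counts over CDK18KO and 7 over DKO. Per2, a repressor in the clock, stood at 13.7, 5.32, 5.59, 8.59 and 11.6 CPM in CDK18KO and at 26.3, 25.9, 30.1 and 35.6 CPM in DKO (1.71, SE 0.33, edgeR adjusted p = 0.165). Dbp, a clock output factor, stood at 8.08, 4.25, 6.21, 6.94 and 4.17 CPM in CDK18KO and at 19.1, 50.1, 8.74 and 16.1 CPM in DKO (1.97, SE 0.55, and 1.31 without DKO 2). Both sets were free of overlap. Nr1d2 and Per3 gave 1.18 (SE 0.35) and 1.19 (SE 0.40) with overlap. Without CDK18KO 1 the direction held for 13 of the 19, and with the hepatocyte function score as a covariate the median was 0.20. The labels used here give no hour of tissue collection, and its part was not tested.

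Stress and hormone response genes were in part higher. Of 31 heat shock and immediate early genes 22 were higher with a median of 0.31, 6 higher and 1 lower at an unadjusted p under 0.05 (backgrounds 3.94% and 1.86%). Klf2, a factor induced by blood flow in endothelium, stood at 18.5 to 38.5 CPM in CDK18KO and at 47.2 to 98.0 CPM in DKO (1.48, SE 0.35). The chaperone gene Dnajb1 (0.95, SE 0.29) and the nuclear receptor gene Nr4a1 (1.33, SE 0.46) did not overlap either, while the phosphatase gene Dusp1 did (2.44, SE 0.79). Hspd1, the mitochondrial chaperonin, was lower at -0.83 (SE 0.30). In a list of 19 tested glucocorticoid-induced genes chosen after values had been seen, 17 were higher with a median of 0.82 and 6 had an unadjusted p under 0.05 (background 3.94%). Tsc22d3, a direct target of the glucocorticoid receptor, stood at 20.2, 30.8, 20.8, 25.8 and 10.2 CPM in CDK18KO and at 100, 84.5, 43.4 and 44.5 CPM in DKO (1.66, SE 0.41), without overlap. The unfolded protein response list had a median of 0.01, with the chaperone cofactor gene Dnajb9 at 1.73 (SE 0.50) and the factor gene Xbp1 at 0.83 (SE 0.32).

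Further genes among the 15 with the smallest p that were higher in DKO had no list of their own. Rgcc, a regulator of cell cycle kinases, gave 3.62 (SE 0.70). Sema3c, a secreted semaphorin, stood at 330.1 CPM in DKO 4 and at 10.7 to 14.9 CPM in the other DKO libraries, against 0.532 to 4.35 CPM in CDK18KO (5.61, SE 1.08, and 2.71 without DKO 4). Pitx1, a homeobox factor, stood at 95.2, 36.1, 20.7 and 3.33 CPM in DKO and at 0 to 2.80 CPM in CDK18KO (4.43, SE 0.88). The non-overlapping higher genes with the highest mean CPM were Hba-a1, Saa2, Hba-a2, Pck1 and Rmnd5a, a ubiquitin ligase subunit that gave 0.50 (SE 0.21).

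Driver genes, p53 targets and several metabolic programmes gave small median differences. Myc stood at 13.5 ± 8.76 CPM (SD, n = 5) in CDK18KO and at 18.3 ± 11.7 CPM (SD, n = 4) in DKO (0.43, SE 0.52), and Ctnnb1 at 609 ± 142 CPM and 789.7 ± 236 CPM (0.38, SE 0.27). A 3′ count of a plasmid-borne gene depends on the plasmid's own 3′ end, so these values do not measure the drivers. Mycl, a relative of Myc, gave 1.24 (SE 0.56) and 0.82 without DKO 3. Of 28 p53 target genes 15 were higher with a median of 0.11. Cdkn1a, which encodes the p21 inhibitor, gave 0.15 (SE 0.52), and the kinase gene Plk3 gave 1.46 (SE 0.55). Apoptosis genes had a median of 0.02. Cycs, which encodes cytochrome c, stood at 58.1 to 66.5 CPM in CDK18KO and at 33.3 to 44.5 CPM in DKO (-0.72, SE 0.24) without overlap, and the survival gene Bcl2l1 gave 1.02 (SE 0.36).

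Of 47 respiratory chain genes 37 were lower with a median of -0.19 and 0 at an unadjusted p under 0.05. Fatty acid oxidation gave a median of -0.08, which was 0.38 without CDK18KO 2 and -0.60 without DKO 2. Fatty acid and cholesterol synthesis each gave a median of 0.29, and these were -0.04 and -0.22 without DKO 2, with the phosphatidate phosphatase gene Lpin1 at 2.0 (SE 0.84, and 1.12 without DKO 2) and the cholesterol regulator Srebf2 at -0.60 (SE 0.24). Hypoxia and glycolysis genes had a median of 0.20, which was -0.10 without DKO 4, with 13 of 32 higher and 0 at an unadjusted p under 0.05. The 3 with the smallest p, Vegfa, Adm and P4ha2, gave 1.15 (SE 0.52), 2.23 (SE 0.97) and 1.49 (SE 0.57), each highest in DKO 4, at 377, 149 and 71.7 CPM. Without DKO 4 they gave 0.33, 0.45 and 0.84. Type I interferon response genes had a median of -0.03, which was 0.31 without DKO 3. The antiviral gene Rsad2 gave 1.55 (SE 0.70) and 0.78 without DKO 4, and Trim30d gave 2.52 (SE 0.82) and 1.65 without DKO 1. The class I antigen presentation gene H2-K1 gave 1.03 (SE 0.45) and 0.68 without DKO 2. Of 28 genes of epithelial to mesenchymal transition 22 were higher with a median of 0.77, which was 1.2003 without CDK18KO 1. S100a4, a calcium-binding protein of motile cells and leukocytes, stood at 0.991 to 20.5 CPM in CDK18KO and at 26.2 to 184 CPM in DKO (3.43, SE 0.81).

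Other blood and immune cell lists had medians above that of all genes, over the members with enough counts to test. Chemokine genes had a median of 1.21 with 12 of 15 higher, megakaryocyte and platelet markers 1.58 with 6 of 7, mast cell, basophil and eosinophil markers 1.62 with 4 of 4, MHC class II genes 0.74 with 6 of 7, and dendritic cell markers 0.40 with 5 of 7. The 4 tested mast cell, basophil and eosinophil markers were Ccr3, Hdc, Gata2 and Kit, and 0 had an unadjusted p under 0.05. Gata2 and Kit are also in the stem and progenitor list. The other 12 of the 16 listed genes were too low to test, with 6 counts over CDK18KO and 39 over DKO. Without CDK18KO 1 the chemokine, megakaryocyte and mast cell medians were 1.86, 2.5015 and 2.94. The megakaryocyte median was 0.76 without DKO 4, and that of dendritic cells -0.04 without DKO 1. The median of T and NK cell markers was 1.46, with 3 of 5 higher, and 0.47 without DKO 1. Haematopoietic stem and progenitor markers had a median of 0.33 with 10 of 15 higher, and 1.317 without CDK18KO 1.

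Several lists of hepatocyte products and signalling turned or moved with 1 library. Complement and coagulation genes, which hepatocytes release, had a median of 0.65 with 32 of 37 higher. It was 0.19 without DKO 2 and -0.30 with the hepatocyte covariate, where 16 were higher and 21 lower. Part of the latter shift is built in, as the covariate holds some of the same genes, among them F2 and F9. Genes of the growth hormone and IGF axis had a median of 0.48, and 0.22 with that covariate. The interferon gamma response had a median of 0.38, which was 0.04 without DKO 2. Xenobiotic metabolism had a median of 0.33, which was -0.35 without DKO 2 and 0.88 without CDK18KO 2. Wnt feedback genes had a median of 0.17, which was -0.37 without DKO 3 and 0.73 without CDK18KO 1, where all 17 were higher. Bile acid genes had a median of 0.18, which was -0.44 without DKO 2 and 0.69 without CDK18KO 2. Hepatocyte transcription factors had a median of -0.01, which was 0.29 without DKO 3, and oncofetal liver tumour markers -0.12, which was 0.53 without CDK18KO 5. The 4 tested Y-linked genes had a median of -5.27. Without CDK18KO 1 only 1 of them had enough counts to test, at -1.65.

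Across all tested genes, the first principal component of log2 CPM held 42.8% of the variance of the 9 libraries, of which 0.598% lay between the groups (exact permutation p = 0.857, two-sided). It set CDK18KO 1, CDK18KO 3 and DKO 3, the tumours with low hepatocyte function genes, against the others. The second component held 16.6%, of which 56.7% lay between the groups (exact permutation p = 0.0556, 0.167 adjusted over 3 components). Its scores ran from -68.5 to -11.8 in DKO and from -12.5 to 63.4 in CDK18KO, where CDK18KO 1 and CDK18KO 2 stood nearest to DKO. The third held 12.5%, with an exact permutation p of 0.778.

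**Figure D5:**
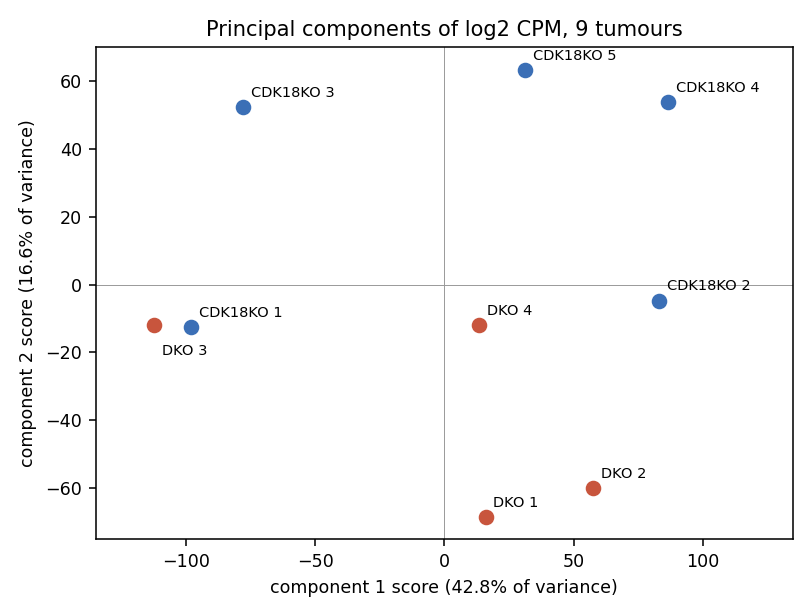
Each point is 1 library at its scores on the first (42.8% of variance) and second (16.6%) principal components of log2 CPM, blue for CDK18KO and red for DKO. The groups mix along the first component, and on the second DKO 1 and DKO 2 lie at -68.5 and -60.1 while DKO 3 and DKO 4 both lie at -11.8, beside CDK18KO 1 at -12.5.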

How the data were processed

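RNA from 14 mouse liver tumours was measured by 3′ sequencing of poly(A) RNA (300.0 ng, 6-base molecular identifiers, stranded single reads of 151 bases), per the labels' protocols. The deposited table holds raw counts per gene for 77981 genes. Per the submitters' processing notes, the authors used STAR 2.7.11a, UMI-tools 1.1.2 and HTSeq 1.99.2, and the notes also name FastQC and DESeq2 1.32.0. The builds mm10 and GRCh38 are named there with no role. The collapsing of reads by identifier and the annotation used for counting are not given in the sources used here. Any counting interval therefore covers counting error alone.

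The main test was edgeR 4.0.16 in R 4.3.3 (quasi-likelihood F test, two-sided, TMM factors, its filter on low counts, all 14 libraries in 1 fit so that WT helps to estimate the spread). P-values were adjusted by Benjamini-Hochberg over 13997 genes, which held 99.0% of counts, and genes with an adjusted p under 0.05 were called. The common biological coefficient of variation was 0.598. CPM are counts scaled to one library total with TMM factors. Each SE was computed as the absolute log2 fold change over the root of the F statistic. The fit was tested on simulated data. Principal components used log2 CPM (prior count 2), and group differences on them an exact permutation test. Alternatives were DESeq2 1.42.0, limma 3.58.1 voom with sample weights, other scaling factors and filters, a robust fit, the 2 groups alone, the replicate number as a block, Y-linked or hepatocyte covariates, and fits without 1 library each. The fit without both CDK18KO 1 and DKO 4 was added after the data were seen. The hepatocyte covariate was the mean log2 CPM of the hepatocyte function list. It shares genes with some of the lists fitted with it, so part of the shift in their medians is built in.

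Genes are named as in the table, and positions come from GENCODE M21 of GRCm38 (93.7% of tested genes). The members and the 53 gene lists were chosen with earlier results of these data known, and 4 further lists (mesothelial genes, stratified epithelium keratins, aminoacyl-tRNA synthetases, glucocorticoid-induced genes) after values had been seen. The text names Cdk16, Cdk18 and their relatives, the 15 genes of each direction with the smallest p, up to 4 members of each described list with the smallest p and up to 3 with the highest mean CPM, and the 5 genes of each direction with the highest mean CPM among those whose groups did not overlap. A few genes that this rule names are not reported here.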

Additional observations from a re-analysis of the deposited data

Results flagged for a closer look

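The values below each belong to 1 library that stood far from the others of its group, by a gap that took up more of the group's range than Dixon's 95% critical value allows. Of 372 values tested in this way, 16 were found (4.30%), where chance alone gives about 5%, so single entries carry little weight.

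In CDK18KO 1, Cdk16 stood at 65.8 CPM against 31.0 to 37.0 CPM in the other 4 libraries. Krt5 stood there at 1.86 CPM against 0. Its mean log2 CPM of macrophage and Kupffer cell markers was 5.11, and that of Y-linked genes was 6.07. In CDK18KO 2, Fancd2 stood at 6.91 CPM and Nr4a1 at 3.19 CPM, each the lowest of its group. The mean log2 CPM in CDK18KO 2 was 4.32 for glycolysis and hypoxia genes, the lowest of its group, and 5.19 for female-biased liver genes, the highest.

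In DKO 1, Tpr stood at 253 CPM and Ranbp2 at 111 CPM, each the lowest DKO library. In DKO 3, Ckap2l stood at 31.7 CPM and Cdca7l at 49.2 CPM, each the highest. In DKO 4, Ccny was the lowest at 109 CPM and Ighm the highest at 36.7 CPM. Sema3c stood there at 330.1 CPM, the highest of its group, and the mean log2 CPM of T and NK cell markers was 2.98, the lowest of its group.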

How the results depend on the processing

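Genes called numbered 0 in every edgeR and limma voom fit but 3. These were no filter on low counts (42, all higher in DKO) and the fits without CDK18KO 1 (2) and without CDK18KO 1 and DKO 4 (2). DESeq2 called 122 higher and 4 lower. Over the fits that left out 1 library each, calls ran from 0 to 2. Genes at an unadjusted p under 0.05, 812 as reported, numbered 1440 with DESeq2, 2214 without the filter, 518 with the 2 groups alone, and 685 (without CDK18KO 3) to 1122 (without CDK18KO 1) with 1 library left out. Of these, the higher ones, 552 as reported, numbered 849 without CDK18KO 1, and the lower ones, 260 as reported, numbered 169 without CDK18KO 3, 429 without CDK18KO 2 and 486 without DKO 3. No scaling moved the median of all genes by 0.1.

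The replicate numbers gave correlations of -0.16, 0.58, 0.65 and 0.17 between same-numbered samples, and 1 of the 4 DKO samples correlated best with its own number. So few values cannot decide whether the numbers pair the samples, which share only a number in the labels. With the replicate number as a block, 0 genes were called and 759 had an unadjusted p under 0.05, 594 higher and 165 lower. The block moved the median of oncofetal markers to 0.66 and of glucocorticoid-induced genes to 1.63, and gave 0.040 for Cps1 and 0.016 for Ccnyl1.

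Among named genes, 10 changed sign under some setting. Without CDK18KO 1 and DKO 4, Cdk16 gave 0.054, Cdk18 0.15, Cdk17 -0.17 and Cdk14 1.38. Cdk14 gave 0.57 with the Y-linked covariate and 0.18 with the hepatocyte covariate, which also gave -0.25 for Glul and 0.043 for Ccnyl1. Ccnyl1 gave 0.040 with the Y-linked covariate and 0.0030 with the stricter filter. Voom gave 0.18 for Cps1. With 1 library left out, ranges were -0.67 to 0.27 for Cdk18, -0.095 to 0.25 for Cdk17, -1.78 to 1.05 for Cdk14, -0.28 to 0.038 for Ccny, -0.25 to 0.18 for Ccnyl1, -0.46 to 1.30 for Glul, -0.78 to 0.0014 for Cps1, -0.046 to 0.87 for Myc and -0.11 to 0.44 for Cdkn1a.

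Medians of some lists moved by more than the spread between libraries. Without CDK18KO 1 and DKO 4 they were 1.59 for haematopoietic stem and progenitor markers, 3.24 for mast cell, basophil and eosinophil markers, 1.91 for chemokines and -1.24 for Y-linked genes. With the Y-linked covariate they were 0.16 for Y-linked genes, 0.95 for stem and progenitor markers, 2.53 for megakaryocyte markers, 1.91 for chemokines and 4.23 for stratified keratins. Without the filter they were 1.07 for stem and progenitor markers, 3.16 for mesothelial genes and 2.06 for B and plasma cell markers. With the 2 groups alone they were 2.34 for keratins, 1.59 for mesothelial genes and 0.85 for cholangiocyte markers, and keratins gave 3.66 with the stricter filter. With 1 library left out, medians ranged from -0.57 to -0.018 for end joining repair, 0.94 to 1.86 for chemokines, 0.76 to 2.5015 for megakaryocyte markers, 0.27 to 1.317 for stem and progenitor markers, 2.91 to 3.66 for B and plasma cell markers, 0.47 to 2.03 for T and NK cell markers, 1.22 to 2.94 for mast cell, basophil and eosinophil markers, 0.61 to 1.51 for cholangiocyte markers, 0.51 to 2.54 for female-biased genes, -5.89 to -1.65 for Y-linked genes (a single gene tested without CDK18KO 1), 1.34 to 3.36 for mesothelial genes, 2.67 to 4.25 for keratins and 0.58 to 1.30 for glucocorticoid-induced genes. The cause of these shifts was not tested. Depth limits low genes most: at a mean of 1 to 10 CPM the median SE was 0.71, against 0.33 from 100 CPM upward.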

Other observations

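Female-biased genes of mouse liver were high in DKO 1, DKO 2 and CDK18KO 2. Their summed CPM reached 116, 1212.5, 72.7, 379.9 and 172 across CDK18KO 1 to 5, against 1132, 1863, 122 and 416 across DKO 1 to 4, so the groups overlapped. Cyp2a4, a female-biased cytochrome whose reads may be shared with its near-identical copy Cyp2a5, stood at 313, 238, 4.21 and 6.11 CPM in DKO 1 to 4 and at 0 to 2.97 CPM in CDK18KO (6.41, SE 1.3, edgeR adjusted p = 0.194). Of 12 tested female-biased genes 9 were higher in DKO with a median of 0.84, which was 2.54 without CDK18KO 2 and 0.10 with the hepatocyte function score as a covariate. The other 11 members were too low to test. They held 45 counts over CDK18KO and 852 over DKO, and 10 of them had a higher mean CPM in DKO. The genes that follow were chosen from these 11 after their values were seen and have no test. A1bg stood at 36 and 6.20 CPM in DKO 1 and DKO 2, was at 0 in DKO 3 and DKO 4, and did not pass 0.463 CPM in CDK18KO. Cyp2b9 stood at 41.7, 9.58, 2.91 and 2.78 CPM in DKO 1 to 4 and at 0 to 1.06 CPM in CDK18KO. Sult3a1 stood at 18.3, 11.3, 2.91 and 2.78 CPM in DKO and at 0 to 0.532 CPM in CDK18KO. Of 8 tested male-biased genes 5 were also higher in DKO, with a median of 0.34 that was -0.60 without DKO 2 and -0.79 with the hepatocyte covariate. The 12 male-biased genes too low to test held 367 counts over CDK18KO and 38 over DKO, with a higher mean CPM in DKO for 4 and a lower one for 6. Cyp4a12b alone held 323 of these counts in CDK18KO and 10 in DKO. It stood at 94.1 CPM in CDK18KO 4, 17.0 CPM in CDK18KO 2 and 0 to 1.55 CPM in the other CDK18KO libraries. Xist was between 477 and 1293 CPM in each of these 9 libraries but CDK18KO 1.

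Keratins of stratified epithelium, listed after values had been seen, appeared in DKO libraries at low levels. Krt5, a keratin of basal cells, stood at 29.1, 15.8, 9.39 and 0.556 CPM in DKO 1 to 4 and at 1.86 CPM in CDK18KO 1, with 0 in the other 4 CDK18KO libraries. Krt6a, a keratin of activated epithelium, stood at 6.57, 1.13, 29.4 and 0 CPM in DKO and at 0 in all 5 CDK18KO libraries. Of the 7 tested members 6 were higher with a median of 3.01, and 5 had an unadjusted p under 0.05 (3.94% of all genes). Members at or near 0 in CDK18KO passed the filter largely through DKO, and the list was chosen on these values, so these counts are no support. The 17 members too low to test held 26 counts over CDK18KO and 329 over DKO.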
